A study of Homo sapiens with 9 samples.

Results

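The mRNAs and small RNAs of a colorectal cancer cell line made resistant to 5-fluorouracil (5-Fu) were compared with those of its parental line across all genes measured. HCT8 is an established human colorectal adenocarcinoma line. HCT8/5-Fu was derived from it by long exposure to rising doses of 5-Fu and was then kept in medium with 5 μg/ml of the drug, whereas parental HCT8 cells grew in the same medium without it. The libraries were chosen by their labels, 3 of HCT8 and 3 of HCT8/5-Fu, which are 6 of the 9 libraries of the study. The other 3 come from HCT8/DDP, a line selected from HCT8 with cisplatin, and are used only where they are set beside HCT8/5-Fu. Each drug is represented by 1 line, and a difference found here is one between lines that the design does not tie to 5-Fu. The drug in the medium and the resistance acquired by the cells cannot be told apart either. Whether either line is 1 clone is not given in the sources used here. Nor do they tell if each replicate was its own culture, and the spread behind every p-value may therefore be technical.

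5-Fu is an analog of uracil. Cells turn it into a nucleotide that blocks thymidylate synthase (TYMS), the enzyme that makes thymidylate for DNA, and into nucleotides that are built into RNA and DNA, where base excision and mismatch repair meet them. Damage of this kind is known to stabilize p53, which induces genes of growth arrest and of cell death.

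Depth ran from 19753035 to 28535882 counts for mRNA and from 631621 (HCT8 replicate 1) to 17146872 reads for miRNA, and 1 read of that shallowest library is worth 1.58 RPM (reads scaled to the library total). The libraries numbered 1 stood apart from the others of both lines. The scaled counts of 2 replicates were set against each other by a chi-square statistic per gene, which is about 1 when only sampling separates them. It was 4.75 between HCT8 replicates 2 and 3 and 45.4 to 53.4 between either of them and replicate 1. In HCT8/5-Fu it was 5.13 between replicates 2 and 3 and 108 to 114 between either of them and replicate 1. Between the 2 lines, r of log2(CPM + 1) across 12401 genes was 0.891 to 0.920, below the 0.971 to 0.973 of HCT8/5-Fu replicate 1 with its own replicates (genes are not independent). With the HCT8/DDP libraries that replicate had an r of 0.967 to 0.974, about as high as with its own line. Each HCT8/5-Fu library was also set against the mean of the other 2, with 1 CPM added to both. The 9968 genes used had at least 10 CPM in replicate 1 or in the mean of replicates 2 and 3. Replicate 1 had 190 genes more than 2-fold above the mean of the others and 231 more than 2-fold below it, against 2 and 48 for replicate 2 and 0 and 15 for replicate 3. BTBD19, a gene of unsettled function, had 56.9 CPM (scaled by edgeR to the library size) in replicate 1 and 7.29 and 10.4 in the others, and DNAH1, a dynein of motile cilia, had 43.9 against 11.9 and 12.4. The replication-dependent histones went the other way, and are described with the cell cycle. The labels give no difference between the replicates, and the part of any such difference in the results was not tested. Results are therefore also given without HCT8/5-Fu replicate 1.

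More than 1 in 3 genes differed between the lines. Of 19976 genes, 13228 had enough counts to be tested by edgeR, and 5118 of these passed an adjusted p of 0.05, or 38.7%, with 2694 (20.4%) higher and 2424 (18.3%) lower in HCT8/5-Fu cells. Every share of a gene list given here is to be read against these background shares. Of the 53 gene and miRNA lists used, 16 held tested members with 0 to 3 reads in 1 line. Such members were tested only through the other line, so that a call of theirs could have only 1 direction. Without HCT8/5-Fu replicate 1 the number called grew to 7533 of 13418 (56.1%), 3819 higher (28.5%) and 3714 lower (27.7%). Leaving out HCT8 replicate 2 or 3 lowered it to 3287 or 3274. The 3 libraries of each line did not overlap for 6855 genes (51.8%). The median log2 fold change of all genes was -0.004, and scaling by library totals moved it to -0.107 and the split to 2036 higher and 2891 lower. In bulk RNA, fewer cells that express a gene and less RNA per cell cannot be told apart. As a check of the labelled cell type, CDX2, the caudal transcription factor of intestinal epithelium, had 147, 169 and 181 CPM in HCT8 and 158, 185 and 191 in HCT8/5-Fu, and CDH1, the epithelial cadherin, 606, 663 and 634 against 777, 631 and 648. Both were well expressed in all 6 libraries, and the lines overlapped for both.

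**Figure D1:**
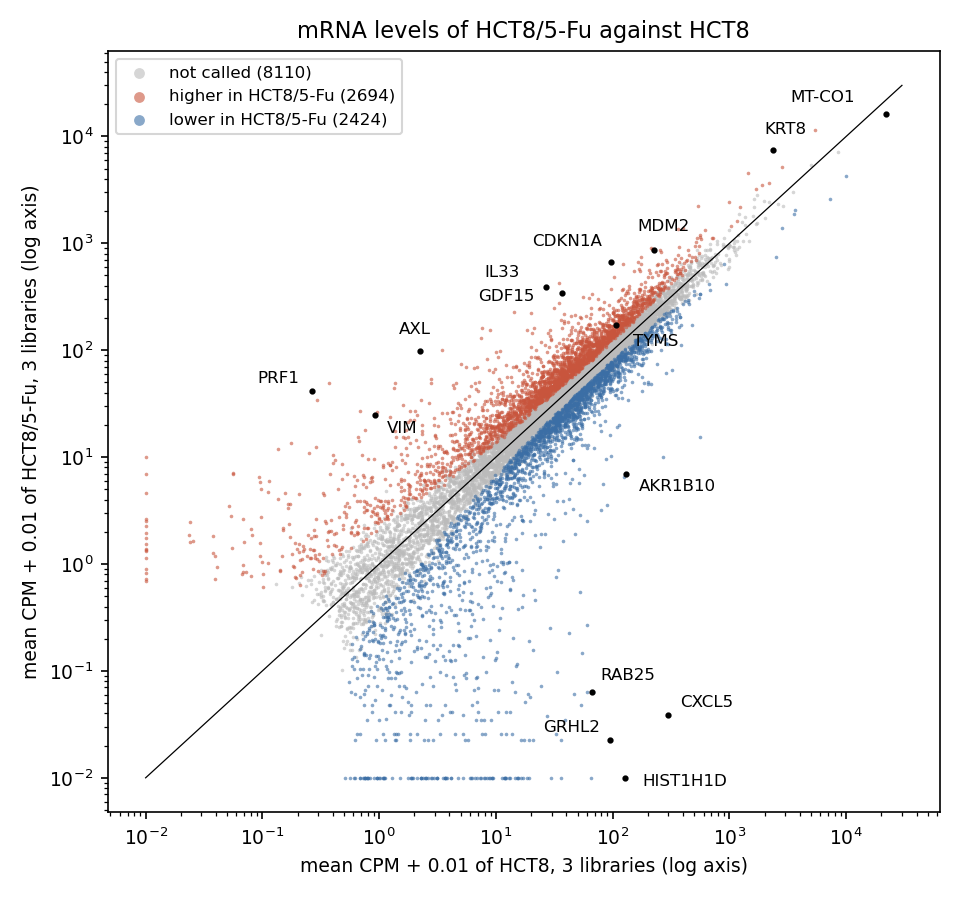
Mean expression of each tested gene in HCT8 (x axis) and HCT8/5-Fu (y axis), in CPM + 0.01 on log axes, with genes called higher (2694) and lower (2424) in colour and the other 8110 in grey. A group of genes at the bottom right was well expressed in HCT8 and near 0 in HCT8/5-Fu, with no such group at the top left among genes of 10 CPM or more.

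Among genes averaging 10 CPM or more in 1 line, those with no or almost no reads in the other were found in 1 direction. Of 9814 genes averaging 10 CPM or more in HCT8, 18 had 0 reads in all 3 HCT8/5-Fu libraries and 18 more had 1 to 3 reads in total. Of 9725 genes at that level in HCT8/5-Fu, 0 had under 4 reads in HCT8. Below that level, genes with 0 reads in 1 line were found in both directions. COCH had 556 reads in HCT8 and 0 in HCT8/5-Fu, and ADAMTS10, at 9.93 CPM in HCT8/5-Fu, had 0 in HCT8 and 720 in HCT8/5-Fu. For a gene with 0 reads the fold was computed as if its 3 libraries together had held 3 reads, a bound that covers counting error only. HIST1H1D, a linker histone on chromosome 6 (chr6:26234268-26234933, coordinates as in the mRNA table, which match GRCh38), had 96.3, 147 and 141 CPM in HCT8, from 9025 reads, and none in any HCT8/5-Fu library (at least 3173-fold lower). GALC, the lysosomal galactosylceramidase (chr14:87837820-87993665), had 29.3, 39.7 and 39.7 CPM in HCT8 and no read in HCT8/5-Fu (at least 897-fold lower). Not 1 read of either gene remained in the resistant line. PPP2R3A, a regulatory subunit of protein phosphatase 2A (chr3:135965728-136147894), had 27.1, 31.6 and 30.1 CPM in HCT8 and no read in HCT8/5-Fu (at least 734-fold lower). ARMCX3, a mitochondrial outer membrane protein, NBEA, a scaffold of vesicle trafficking, RRAGD, a GTPase that signals amino acids to mTORC1, and SAA1, an acute-phase protein, were lower by at least 422-fold, 407-fold, 376-fold and 384-fold, and SGPP2, a sphingosine-1-phosphate phosphatase, by at least 360-fold. These bounds fall when a library is left out, because the floor then rests on fewer reads. The lowest were found without HCT8/5-Fu replicate 2, where HIST1H1D was still at least 2036-fold and GALC at least 576-fold lower. The same genes had 0 to 2 reads in HCT8/DDP, whose comparison shares the HCT8 libraries: HIST1H1D, GALC, NBEA and RRAGD had 0, PPP2R3A 1 and ARMCX3 2.

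Of the lost genes, 5 were picked after their values were seen and say nothing of how often genes like them fell. IFT57, TTC30A and TTC30B encode parts of the intraflagellar transport machinery of cilia, DYNC2H1 the heavy chain of its retrograde motor and ARL6 a GTPase of the Bardet-Biedl syndrome complex. IFT57 had 15.6, 21.8 and 20.2 CPM in HCT8 and 0 in HCT8/5-Fu. Its 1350 reads in HCT8 make it at least 476-fold lower. TTC30A lost all of its 905 reads (at least 320-fold lower), TTC30B its 845 (at least 298-fold) and ARL6 its 639 (at least 228-fold). DYNC2H1 had 1377 reads in HCT8 and 3 in HCT8/5-Fu, all in replicate 1, a ratio of 488 (95% counting interval 167 to 2371). No library of HCT8/5-Fu reached 0.2 CPM of any of these 5. FOXJ1, the transcription factor of motile cilia, was higher in HCT8/5-Fu, with 0.649, 0.209 and 0.329 CPM in HCT8 and 9.20, 11.6 and 10.5 in HCT8/5-Fu, a log2 fold change of 4.72.

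Some lost genes lay side by side. Over 12393 expressed genes in genomic order, 132 had gone to near 0, and 18 of these formed 8 runs of neighbours. They included TTC30B with TTC30A, SAA2 with SAA1, the histones HIST1H1D, HIST1H3F and HIST1H2BH, and ARMCX6, ARMCX3 and ZMAT1 on the X chromosome. No chance level was computed for these runs. No chromosome moved as a whole: medians of the log2 fold change per chromosome ran from -0.12 on chromosome 15 to 0.10 on chromosome 17.

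CXCL5, a chemokine that draws neutrophils, had the largest fall among the genes that kept any read. It had 296, 288 and 309 CPM in HCT8 and 0.0472, 0 and 0.0378 in HCT8/5-Fu (chr4:73995642-73998677). The 20789 reads of HCT8 against 2 give a ratio of 11061 (95% counting interval 3062 to 91338). NUDT12, a peroxisomal NADH hydrolase that the naming rule did not pick, went from 2567 reads to 1, a ratio of 2732 (95% counting interval 490 to 107930). GABRE, a subunit of the GABA-A receptor whose gene also holds miRNA genes described with the small RNAs, had 16.0, 15.3 and 15.3 CPM in HCT8 and no read in HCT8/5-Fu (at least 384-fold lower), and TMEM52B, a membrane protein, was at least 329-fold lower.

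**Figure D2:**
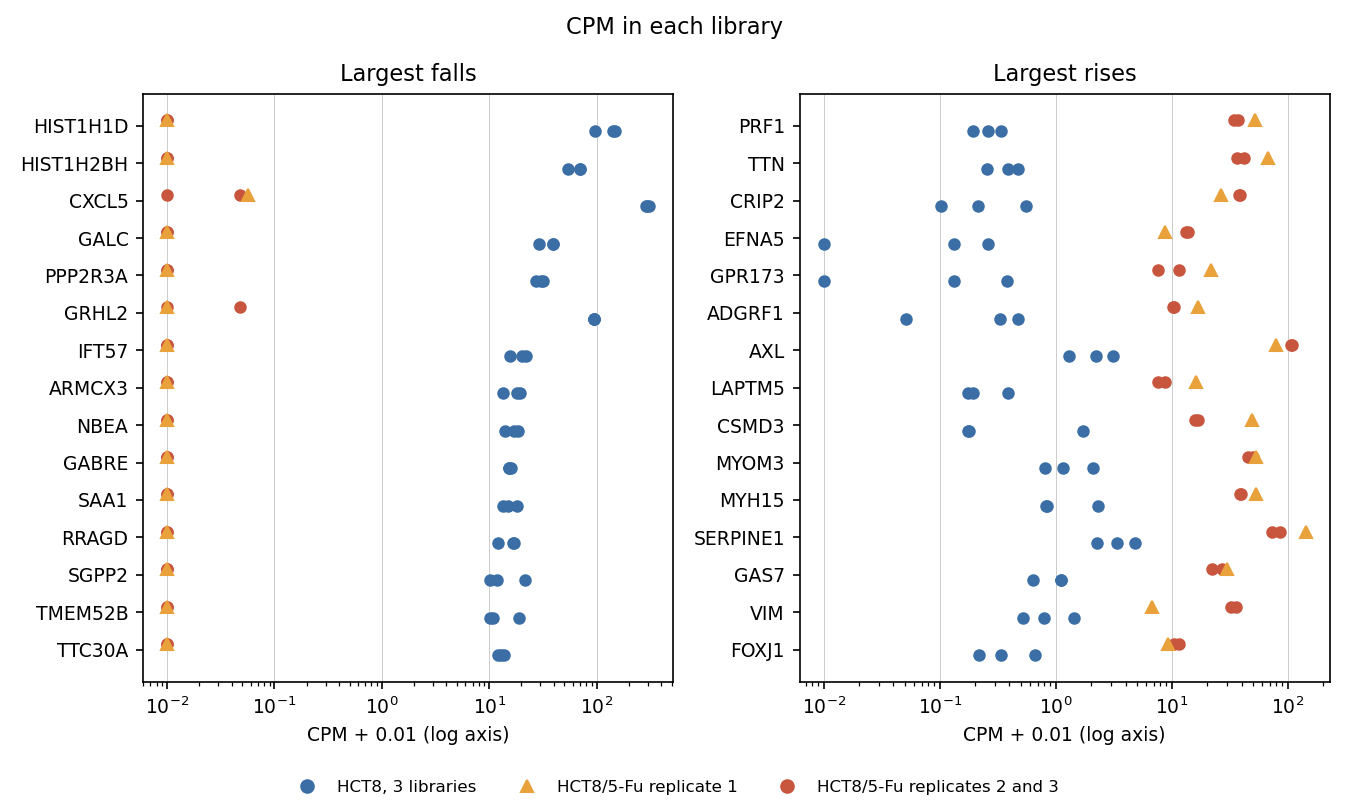
CPM + 0.01 on a log axis of the 15 genes with the largest fall and the 15 with the largest rise, 1 point per library (HCT8 blue, HCT8/5-Fu replicate 1 an orange triangle, replicates 2 and 3 red). The lines did not overlap for any of these genes, and HCT8/5-Fu replicate 1 lay on the same side as the other 2 replicates.

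The largest rises started from traces in HCT8. Some of these genes, PRF1 and EFNA5 among them, reached the counts needed for testing only through HCT8/5-Fu. A call of theirs could therefore only be a rise. PRF1, perforin, the pore-forming protein of cytotoxic lymphocytes (chr10:70597348-70602759), had 0.185, 0.251 and 0.329 CPM in HCT8 and 52.1, 34.3 and 37.2 in HCT8/5-Fu, 7.29 ± 0.30 (SE) on the log2 scale (adjusted p = 1.65e-06 by edgeR). TTN, the giant sarcomere protein titin, had 0.463, 0.377 and 0.246 CPM against 68.2, 36.4 and 42.1, a log2 fold change of 7.07 ± 0.36. The 2 groups of libraries lay far apart for both genes, and replicate 1 was the highest of the 3 resistant libraries. MYOM3, a myomesin, had 2.08, 0.795 and 1.15 CPM against 53.02, 50.1 and 45.9 (log2 fold change 5.22), and MYH15, a myosin heavy chain, had a log2 fold change of 5.07. CRIP2, a LIM domain protein, had 0.0927, 0.544 and 0.205 CPM against 26.7, 38.5 and 37.7 (log2 fold change 6.88). EFNA5, an ephrin ligand, had 0, 0.251 and 0.123 CPM against 8.82, 13.3 and 13.8 (6.48). AXL, a receptor tyrosine kinase, had 3.10, 1.30 and 2.22 CPM in HCT8 and 79.5, 107 and 108 in HCT8/5-Fu (log2 fold change 5.48 ± 0.28, adjusted p = 3.57e-06). The orphan receptor GPR173 had a log2 fold change of 6.38 and the adhesion receptor ADGRF1 one of 5.49. GAS7, an actin-binding protein, had a log2 fold change of 4.796. LAPTM5, a lysosomal protein best known in leukocytes, rose by 5.45 and CSMD3, a large membrane protein, by 5.36 on the log2 scale. VIM, vimentin, had 0.510, 1.42 and 0.780 CPM against 6.75, 35.5 and 32.7, with replicate 1 well under the other resistant libraries (log2 fold change 4.77, or 5.21 without it). ADAMTS10, a secreted metalloprotease just under the 10 CPM that the naming rule asks for, was named after its values were seen. It had 0 reads in HCT8 and 13.2, 7.10 and 9.48 CPM in HCT8/5-Fu, at least 231-fold higher, or 151-fold without HCT8 replicate 3.

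The enzymes that handle 5-Fu changed in part. Of 32 tested genes of fluoropyrimidine and folate metabolism, 8 rose and 2 fell, with a median log2 fold change of 0.19. After HCT8/5-Fu replicate 1 was left out, 15 rose and 2 fell, and after HCT8/5-Fu replicate 2 was left out 7 rose and 1 fell. TYMS, the target of the drug, had 121, 99.0 and 102 CPM in HCT8 and 95.9, 210 and 210 in HCT8/5-Fu (log2 fold change 0.67 ± 0.27, adjusted p = 0.0742). Replicate 1 of HCT8/5-Fu lay below all HCT8 libraries and the others at about double their level, and without it the log2 fold change was 0.96 (adjusted p = 1.24e-04 by edgeR). TK1, thymidine kinase of the salvage pathway, behaved alike, with 89.9, 69.1 and 71.6 CPM against 30.1, 85.2 and 90.1. Its log2 fold change was -0.17 (adjusted p = 0.716) with all libraries and 0.19 without replicate 1. Of the enzymes that activate the drug, UPP1, uridine phosphorylase, had 9.03, 8.96 and 7.19 CPM in HCT8 and 17.8, 21.1 and 20.01 in HCT8/5-Fu, a log2 fold change of 1.22 ± 0.16 (adjusted p = 5.69e-04). UMPS, which joins 5-Fu to ribose phosphate, had 60.6, 56.4 and 54.7 CPM against 63.6, 68.9 and 68.2 (log2 fold change 0.22, adjusted p = 0.118, or 0.0337 without replicate 1). TYMP, thymidine phosphorylase, and DPYD, the dehydrogenase that degrades 5-Fu, had 4 and 17 reads in HCT8 and 2 and 6 in HCT8/5-Fu and could not be tested. NT5E, the ecto-nucleotidase that removes phosphate from nucleotides, had 14.7, 19.2 and 17.2 CPM against 38.5, 54.7 and 53.6 (log2 fold change 1.52 ± 0.17, adjusted p = 2.36e-04). DCTD, deoxycytidylate deaminase, which feeds the substrate of TYMS, rose by 0.99 on the log2 scale. RRM2B, the p53-induced subunit of ribonucleotide reductase, had 50.9, 61.2 and 52.0 CPM against 171, 117 and 112 (1.29 ± 0.18). The 2 groups did not overlap for these 3 genes. Further members, chosen after their values were seen, were CAD, the first enzyme of pyrimidine synthesis, at 134 against 342 CPM (log2 fold change 1.35), and GGH, which shortens folate polyglutamates, at 42.8 against 16.1 (-1.41).

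**Figure D3:**
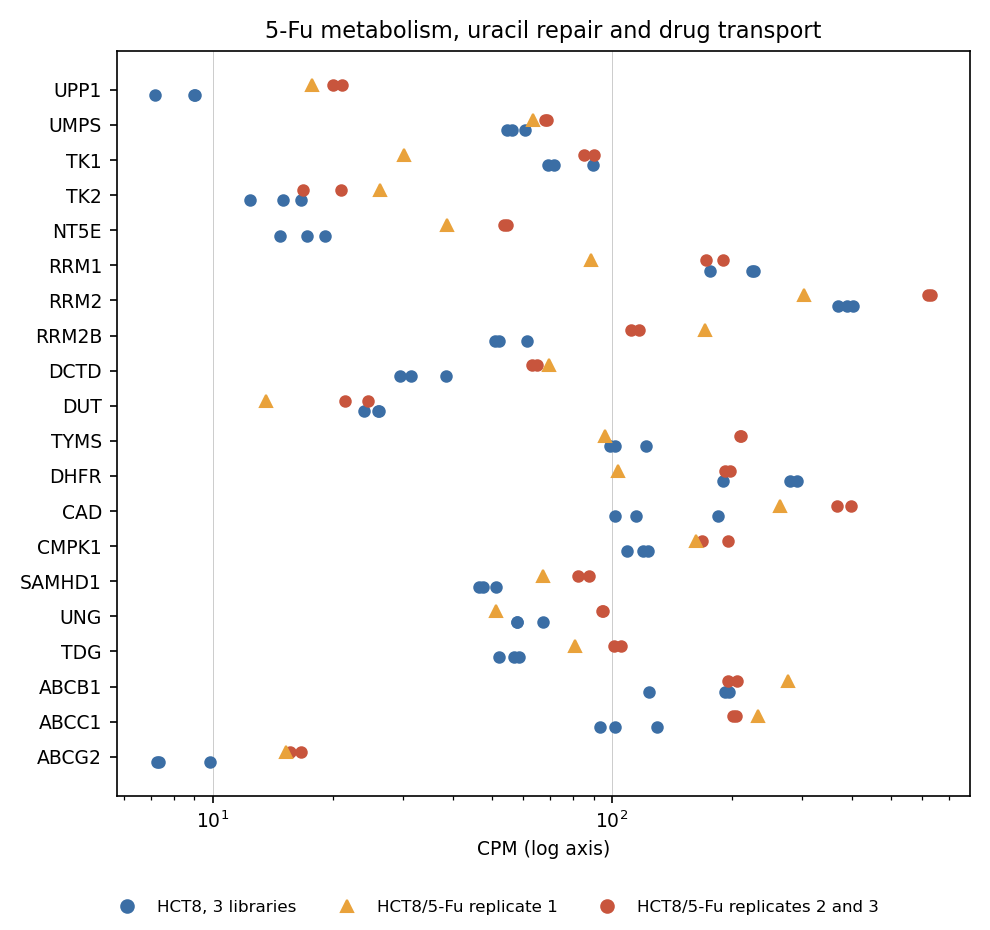
CPM on a log axis of 20 genes of fluoropyrimidine metabolism, nucleotide metabolism and drug transport, 1 point per library (HCT8 blue, HCT8/5-Fu replicate 1 an orange triangle, replicates 2 and 3 red). UPP1, NT5E, RRM2B, ABCC1 and ABCG2 lay higher in each HCT8/5-Fu library than in any HCT8 library, whereas TYMS and TK1 were split between replicate 1 and the others.

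Of 23 base excision repair genes, 4 rose and 3 fell (median -0.11), shares near those of all genes. TDG, the glycosylase that removes thymine and 5-Fu opposite guanine, had 52.0, 58.5 and 57.0 CPM in HCT8 and 81.1, 105.7 and 102 in HCT8/5-Fu (log2 fold change 0.78 ± 0.13, adjusted p = 0.00168). The lines did not overlap for TDG. The calls of MPG, the glycosylase of alkylated bases, and LIG1, a DNA ligase, were lost without HCT8/5-Fu replicate 3 (adjusted p = 0.0717) and HCT8 replicate 3 (0.0684). The rises of this list numbered 1 without HCT8 replicate 2 and 2 without HCT8 replicate 3 or HCT8/5-Fu replicate 2 or 3. Its falls numbered 1 without HCT8 replicate 2 or 3 and 5 without HCT8/5-Fu replicate 1. Of 8 mismatch repair genes, MSH6, which recognizes mispaired bases, fell (49.3, 48.8 and 47.9 against 32.5, 30.5 and 34.3 CPM, log2 fold change -0.59, adjusted p = 0.00310) and 0 rose by edgeR, 1 without HCT8 replicate 1 or HCT8/5-Fu replicate 1. Without HCT8/5-Fu replicate 1, 2 mismatch repair genes fell. Of 11 ABC transporters of drugs, 3 rose and 1 fell, again near the shares of all genes. ABCC1 had 130, 93.4 and 102 CPM against 232, 205 and 200.8 (log2 fold change 0.97 ± 0.15, adjusted p = 0.00117). ABCG2 had 9.87, 7.24 and 7.35 CPM against 15.3, 15.6 and 16.7 (0.96 ± 0.18, adjusted p = 0.00314). Both export a range of drugs, and each HCT8/5-Fu library was above each HCT8 library. ABCC4 rose by 0.44, but not without HCT8 replicate 3 (adjusted p = 0.0607), and ABCB4, a phospholipid exporter, fell by 1.62 on the log2 scale. When HCT8/5-Fu replicate 1 was left out, 4 of the transporters fell. ABCB1, P-glycoprotein, had 124, 196 and 192 CPM against 277, 206 and 196 (0.40 ± 0.21, adjusted p = 0.160), with replicate 1 the lowest HCT8 and the highest HCT8/5-Fu library.

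Most genes induced by p53 were higher. Of 27 tested, 20 rose and 1 fell, with a median log2 fold change of 0.70. If HCT8/5-Fu replicate 1 was left out it was 20 and 3, with a median of 0.65, and without other libraries at least 14 still rose. CDKN1A, the p21 inhibitor of cyclin-dependent kinases (chr6:36676460-36687339), had 147, 68.5 and 76.7 CPM in HCT8 and 978, 482 and 524 in HCT8/5-Fu, a log2 fold change of 2.77 ± 0.37 (adjusted p = 5.68e-04). GDF15, a stress-induced cytokine, had 56.0, 25.6 and 27.8 CPM against 414, 302 and 321 (3.24 ± 0.31). Replicate 1 was the highest library of its line for both genes in both lines. PLK2, a polo-like kinase, rose by 1.84 and AEN, an exonuclease of cell death, by 1.20 on the log2 scale. Further members, chosen after their values were seen, were MDM2, the ligase that degrades p53, at 353, 164 and 158 CPM against 1368, 647 and 604 (log2 fold change 1.96), FAS, the death receptor, at 1.83, ZMAT3, an RNA-binding protein, at 1.75, and SPATA18, a mitochondrial quality control gene, which fell from 1.26 to 0.0501 CPM. BBC3, an activator of apoptosis, had 4.13 against 5.94 CPM and did not pass the test (adjusted p = 0.166).

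The genes of cell division moved with HCT8/5-Fu replicate 1. Of 39 DNA replication genes, 0 rose by edgeR and 5 fell (median -0.09). Without replicate 1, 14 rose and 7 fell (median 0.15). Without HCT8 replicate 1, 2 or 3 the falls numbered 0, 1 and 1. The 4 named falls were POLA1 and PRIM1 of the primase complex and POLD3 and POLE2 of the replicative polymerases, with adjusted p of 0.0160 to 0.0307, and each was lost without some HCT8 library (adjusted p = 0.0562 to 0.0861). MCM2, a subunit of the replicative helicase, shows the split: it had 134, 105.8 and 104.5 CPM in HCT8 and 87.7, 210 and 214 in HCT8/5-Fu (adjusted p = 0.160, or 3.83e-04 without replicate 1). Of 42 spindle and chromosome segregation genes, 0 rose by edgeR and 11 fell (median -0.38). Without HCT8/5-Fu replicate 1 it was 3 and 13 (median -0.10), and 4 and 5 fell without HCT8 replicates 2 and 3. KIF15, a mitotic kinesin, had 72.4, 84.6 and 82.0 CPM in HCT8 and 25.7, 42.8 and 41.3 in HCT8/5-Fu (-1.13 ± 0.19, adjusted p = 0.00180). CENPE, a kinetochore motor, had 91.5, 127 and 117 CPM against 34.9, 56.4 and 62.3 (-1.13 ± 0.21), and KIF14, a kinesin of cytokinesis, 72.2, 73.8 and 65.2 against 36.5, 46.7 and 45.1 (-0.72). These kinesins were lower in each HCT8/5-Fu library, replicates 2 and 3 included. MKI67, the proliferation antigen, had 1166 CPM on average in HCT8 and 891 in HCT8/5-Fu and did not pass the test (adjusted p = 0.321).

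Histone genes, whose transcripts mostly lack a poly(A) tail, held 0.664% to 0.896% of the counts in HCT8 and 0.196%, 0.652% and 0.634% in HCT8/5-Fu. Of 57 tested, 0 rose by edgeR and 8 fell (median -0.47). Once HCT8/5-Fu replicate 1 was left out, 7 rose and 12 fell (median -0.06). In that library 38 of 41 histone genes over 10 CPM had less than 0.5 times the mean level of replicates 2 and 3, with a median log2 ratio of -1.93. A set of histone genes fell far further than the rest in all 3 HCT8/5-Fu libraries. HIST1H2BH had 54.8, 70.4 and 69.9 CPM in HCT8 and no read in HCT8/5-Fu (at least 1611-fold lower), and HIST1H2BE went from 60.7 to 2.50 CPM (log2 fold change -4.60). HIST1H3F and HIST1H2AL went from 39.3 and 53.1 CPM to 0.0250 and 0.0377. HIST1H1B, a linker histone named after its values were seen, had 422, 636 and 625 CPM against 0.613, 25.5 and 19.9. Histone genes of 1 class are close copies of each other, so their counts depend on how shared reads were assigned, which the sources used here do not give.

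Epithelial genes moved both ways. Of 33 epithelial regulators and adhesion genes, 11 rose and 10 fell (median 0.02), and 13 and 12 without HCT8/5-Fu replicate 1. GRHL2, the grainyhead factor of epithelial identity, went from 6638 reads to 1. RAB25, a GTPase of apical recycling (chr1:156061160-156070504), had 59.5, 70.8 and 67.8 CPM in HCT8 and 0.0472, 0.113 and 0 in HCT8/5-Fu. PRSS8, the membrane protease prostasin, went from 39.4 to 2.97 CPM (log2 fold change -3.72). Further members, chosen after their values were seen, were OVOL1, an epithelial repressor, at 15.6 against 0.371 CPM, ESRP1, a splicing factor of epithelia, at 53.7 against 20.1, and GRHL3, a paralog of GRHL2, which rose from 24.6 to 59.7. EPCAM, the epithelial adhesion molecule, rose by 0.56 on the log2 scale (231, 276 and 257 against 342, 409 and 373 CPM), though not without HCT8 replicate 3 (adjusted p = 0.0532).

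Keratins mostly rose, 12 of 17 tested with 0 falls by edgeR and a median log2 fold change of 1.66, and 12 and 0 without HCT8/5-Fu replicate 1. Of the 17, KRT5, KRT14 and KRT6A had 0, 3 and 1 reads in HCT8. They were tested only because of their counts in HCT8/5-Fu, so that a call of theirs could only be a rise. KRT20, a keratin of differentiated intestinal cells, had 1.34, 3.06 and 2.42 CPM in HCT8 and 34.2, 36.3 and 32.0 in HCT8/5-Fu (3.90 ± 0.26, adjusted p = 1.45e-05). KRT80 went from 19.1 to 78.2 CPM and KRT13, a keratin of squamous mucosa, from 8.91 to 35.2. KRT8 and KRT18, the pair of simple epithelia and further members chosen after their values were seen, each had a log2 fold change of 1.66. Other keratins of squamous epithelium came up from 0 or near it but stayed low: KRT14 went from 0.0413 to 3.45 CPM, KRT6A from 0.0137 to 1.84, and KRT5 from 0 reads to 61, at least 18.8-fold higher.

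Of 11 mucins tested, 6 rose and 2 fell (median 1.92), the falls at about the share of all genes, and without HCT8/5-Fu replicate 1, 6 and 4 of 12 (median 0.93). MUC5B, a gel-forming mucin (chr11:1223066-1262172), had 8.29, 7.16 and 7.15 CPM in HCT8 and 156, 156 and 175 in HCT8/5-Fu, a log2 fold change of 4.43 ± 0.13 (adjusted p = 3.20e-07). The replicates of each line lay within a narrow range, and replicate 1 did not stand apart. MUC2, the mucin of goblet cells, rose by 3.49 and the membrane mucin MUC13 by 2.14 on the log2 scale. MUC4, a membrane mucin, went from 6.05 to 0.437 CPM, and MUC20, a further member chosen after its values were seen, from 14.7 to 1.04. Among 23 genes of intestinal identity 9 rose and 2 fell (median 0.25), 11 and 3 without HCT8/5-Fu replicate 1. Only 1 fell without HCT8 replicate 2 or 3 or HCT8/5-Fu replicate 2 or 3. LGR5, the receptor of intestinal stem cells, rose from 18.3 to 47.8 CPM. VIL1, the microvillus protein villin, had 266 against 201.2 CPM and did not pass the test (adjusted p = 0.0986).

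Of 19 tested mesenchymal markers, 9 rose and 3 fell (median 1.41), the same counts as without HCT8/5-Fu replicate 1, while the canonical fibroblast gene COL1A1 had 6.87 against 3.96 CPM and was not called. S100A4, a calcium-binding protein of motile cells, had 53.2, 57.3 and 57.7 CPM in HCT8 and 308, 317 and 320 in HCT8/5-Fu (2.49 ± 0.11, adjusted p = 2.11e-06). COL6A1, a collagen VI chain, rose by 1.86 and COL5A1, a fibrillar collagen chain, by 4.17 on the log2 scale. TGFB2, a TGF-β ligand, had 27.6, 19.4 and 16.7 CPM against 0.236, 0.601 and 0.831 (-5.21). ZEB1, a repressor of epithelial genes and a further member chosen after its values were seen, had 5.51, 6.45 and 5.09 CPM against 30.3, 19.4 and 18.9, with no overlap.

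Of 19 tight junction genes, 7 rose and 3 fell (median 0.30), but only 3 and 4 rose without HCT8 replicates 2 and 3, and without HCT8/5-Fu replicate 1 it was 8 and 4. CLDN6, a claudin of embryonic epithelia, had 2.64, 0.963 and 1.85 CPM against 16.0, 25.6 and 25.1 (3.62). CLDN1 went from 1.20 to 0.0879 CPM. MARVELD2, tricellulin, rose by 0.49. Among 28 HOX genes, which set position along the body axis, 11 rose and 4 fell (median 0.73), 13 and 8 without HCT8/5-Fu replicate 1. Without HCT8 replicate 2, 2 fell. HOXC13, with 3 reads in HCT8 and 215 in HCT8/5-Fu, could be called only as a rise, and HOXB13 only as a fall. HOXA10 had 1.67, 1.13 and 1.23 CPM against 14.8, 19.1 and 19.1 (3.72 ± 0.23), HOXA3 rose by 2.12 and HOXB8 by 0.998, and HOXB13, a posterior gene of the colon, had 9.73, 7.62 and 9.61 CPM against 0, 0.0751 and 0.

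Extracellular matrix genes mostly rose. Of 40 tested, 23 rose and 2 fell (median 1.13). With HCT8/5-Fu replicate 1 left out, it was 24 and 6 (median 0.74), and 1 fell without HCT8 replicate 2 or 3 or HCT8/5-Fu replicate 2 or 3. HSPG2, the basement membrane proteoglycan perlecan, had 244, 192 and 208 CPM in HCT8 and 1018, 801 and 886 in HCT8/5-Fu (2.07 ± 0.16, adjusted p = 3.08e-05). CCN1, a matricellular protein, had 18.2, 22.3 and 23.2 CPM against 120, 192 and 174 (2.92 ± 0.19). Both groups of libraries were well apart. Further members, chosen after their values were seen, were COL17A1, the hemidesmosomal collagen, at 31.5 against 249 CPM (2.98) and TNC, tenascin C, at 9.80 against 66.3 (2.76). Of 11 matrix proteases and their inhibitors, 8 rose and 1 fell, 9 and 1 without HCT8/5-Fu replicate 1. Without HCT8 replicate 2 only 4 rose, and 0 fell by edgeR without HCT8 replicate 2 or 3 or HCT8/5-Fu replicate 3. The membrane protease MMP14 rose by 1.34 and the inhibitors TIMP1 and TIMP4 by 0.75 and 1.89, and the collagenase MMP13 went from 0.140 to 2.15 CPM. CCN1 is also a target of YAP and TEAD, factors that answer to cell shape and tension. Of 23 such targets, 13 rose and 3 fell (median 0.42), 15 and 4 without HCT8/5-Fu replicate 1. F3, tissue factor, went from 15.5 to 46.0 CPM (1.57), and ANKRD1, a muscle ankyrin repeat protein and a further member chosen after its values were seen, from 1.98 to 22.1 (3.46).

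Chemokines and interleukins were among the lists with most calls, 8 higher and 10 lower of 21 tested (median 0.22), and 8 and 11 without HCT8/5-Fu replicate 1. The falls, led by CXCL5, covered most ligands of the neutrophil receptor CXCR2. CXCL1 went from 10.2 to 0.958 CPM (-3.39), and CCL28, a mucosal chemokine, from 6.72 to 0.0754. Further members, chosen after their values were seen, were CXCL2 and CXCL3, with log2 fold changes of -2.997 and -2.79, CXCL8, interleukin 8, with 11.2, 11.1 and 14.9 CPM against 2.83, 1.95 and 1.93 (-2.48), and CCL20, which draws lymphocytes to mucosa and went from 482 reads to 2, a ratio of 256 (95% counting interval 70.6 to 2124). IL33, an alarmin of epithelial nuclei (chr9:6215786-6257983), went the other way, with 23.4, 28.9 and 28.8 CPM against 453, 371 and 338 (3.84 ± 0.17, adjusted p = 2.09e-06).

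Of 37 interferon-stimulated genes tested, 12 rose and 7 fell (median 0.27), the falls at about the share of all genes, and 12 and 13 without HCT8/5-Fu replicate 1. The falls numbered 3 without HCT8 replicate 2 and 4 without HCT8/5-Fu replicate 3. ISG15, the ubiquitin-like modifier, had 12.1, 13.2 and 15.4 CPM in HCT8 and 56.7, 56.1 and 55.4 in HCT8/5-Fu (2.05 ± 0.13, adjusted p = 1.19e-05), and IFITM2, a barrier to virus entry, rose by 1.41. HERC5, the ligase that attaches ISG15, had 3.80, 5.06 and 4.60 CPM against 0.236, 0.0751 and 0.0378 (-5.30). MX2 went from 0.737 to 6.56 CPM, whereas its paralog MX1, a further member chosen after its values were seen, fell from 9.88 to 4.48 (-1.14). Of 17 genes of MHC class I presentation, 7 rose and 1 fell (median 0.34), 9 and 4 without HCT8/5-Fu replicate 1. Only 4 and 3 rose without HCT8 replicates 2 and 3, and 2 fell without HCT8 replicate 1. PSMB9, a subunit of the immunoproteasome, had 7.13, 13.3 and 12.9 CPM against 1.32, 0.939 and 0.868 (-3.42), and TAPBP, tapasin, rose by 0.999. The peptidase ERAP2 rose by 0.56.

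Genes of sterol and fatty acid synthesis mostly fell, 22 of 34 tested, with 4 rises (median -1.06). The falls numbered 18 to 23 with a library left out, and 22 without HCT8/5-Fu replicate 1, where 6 rose. The rises numbered 2, 1, 2 and 2 without HCT8 replicates 2 and 3 and HCT8/5-Fu replicates 2 and 3. MSMO1, the sterol C4-methyl oxidase, had 75.6, 93.3 and 91.4 CPM in HCT8 and 26.7, 19.5 and 18.8 in HCT8/5-Fu (-2.004 ± 0.17, adjusted p = 4.85e-05). IDI1, isopentenyl-diphosphate isomerase, had 92.1, 166 and 148 CPM against 35.0, 35.8 and 31.7 (-1.99 ± 0.21). No library of HCT8/5-Fu reached the lowest HCT8 library for either gene. LSS, lanosterol synthase, fell by 1.28 and SQLE, squalene epoxidase, by 1.39 on the log2 scale. Further members, chosen after their values were seen, were INSIG1, which retains the sterol sensor in the endoplasmic reticulum, at 114 against 20.1 CPM (-2.50), and SREBF2, the transcription factor of the pathway, at 265 against 128 (-1.06). The rises included ELOVL6, ACLY and FADS1, of fatty acid synthesis. Their log2 fold changes were 0.68, 0.66 and 0.49, and the call of FADS1 was lost without HCT8/5-Fu replicate 2 (adjusted p = 0.0951) and that of ACLY without HCT8 replicate 3 (0.0521).

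Of 32 genes of NRF2 and glutathione metabolism, 6 rose and 8 fell (median -0.04), near the shares of all genes, 10 and 12 without HCT8/5-Fu replicate 1, with 5 falls without HCT8 replicate 3. AKR1B10, an aldo-keto reductase, had 100.1, 143 and 147 CPM in HCT8 and 6.42, 5.86 and 8.46 in HCT8/5-Fu (-4.23 ± 0.21, adjusted p = 3.12e-06). AKR1C1, another aldo-keto reductase, fell by 3.01 and MGST1, the microsomal glutathione transferase, by 3.41 on the log2 scale, while ME1, malic enzyme, rose by 1.56. NQO1, a classic NRF2 target and a further member chosen after its values were seen, had 639 against 657 CPM and was not called. Of 17 aldehyde dehydrogenases, 7 rose and 5 fell (median 0.34), 9 and 6 without HCT8/5-Fu replicate 1. ALDH3A1 had 180, 143 and 167 CPM against 581, 686 and 734 (2.03 ± 0.15). ALDH1A3, which makes retinoic acid, rose by 2.16 and ALDH3B1 by 1.24, and ALDH1L1, a folate enzyme, fell by 2.23 on the log2 scale. The metallothioneins, which bind zinc and copper, numbered 7, with 1 rise and 3 falls (2 rises without HCT8/5-Fu replicate 1). MT1M lost its 194 reads (at least 68.1-fold lower), and MT1A went from 19.0 to 0.0503 CPM. The rise of MT2A (216 against 480 CPM) was not called without HCT8 replicate 1, 2 or 3 or HCT8/5-Fu replicate 2 or 3, with an adjusted p of up to 0.104, and the fall of MT1G was lost without HCT8 replicate 2 (0.0577).

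Transcripts of the mitochondrial genome were lower. Of its 13 protein-coding genes, 9 fell and 0 rose by edgeR (median -0.89), 9 again when HCT8/5-Fu replicate 1 was left out and 5 when HCT8 replicate 2 was. Their share of counts was 4.75%, 7.02% and 6.71% in HCT8 and 2.75%, 3.61% and 3.70% in HCT8/5-Fu. MT-ATP6, of ATP synthase, had 1831, 2960 and 2686 CPM against 561, 810 and 861 (-1.75 ± 0.24, adjusted p = 6.81e-04). MT-CO2, of cytochrome oxidase, fell by 1.47 and MT-ND4L, of complex I, by 0.89 on the log2 scale. The 80 nuclear genes of oxidative phosphorylation had 5 rises and 9 falls (median -0.05), and 14 and 11 without HCT8/5-Fu replicate 1. Without HCT8 replicates 2 and 3 and HCT8/5-Fu replicates 2 and 3 the rises numbered 3, 1, 2 and 2 and the falls 1, 1, 5 and 3. ATP5IF1, the inhibitor of ATP synthase, rose by 0.88 and SDHA, of complex II, fell by 0.73. Of 35 hypoxia and glycolysis genes, 11 rose and 7 fell (median 0.11), 13 and 8 without HCT8/5-Fu replicate 1, and 6 rose without HCT8 replicate 3 or HCT8/5-Fu replicate 2 or 3. PDK1, which holds pyruvate back from the mitochondrion, had 68.2, 68.6 and 70.0 CPM against 24.0, 17.7 and 21.6 (-1.71 ± 0.14), and VEGFA, the angiogenic factor, fell by 1.18. The glucose transporter SLC2A3 and the lactate exporter SLC16A3 rose by 1.31 and 0.95. The 84 cytosolic ribosomal protein genes had 5 rises and 0 falls by edgeR (median -0.08), 10 and 0 without HCT8/5-Fu replicate 1, 2 rises without HCT8 replicate 2, 1 without HCT8 replicate 3 or HCT8/5-Fu replicate 2 or 3, and 4 falls without HCT8 replicate 1. RPS27L, a p53-induced paralog, rose by 1.05, and the rises of RPL14, RPL22 and RPL7L1 were lost without HCT8/5-Fu replicate 2.

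Of 35 genes of the unfolded protein and integrated stress responses, 8 rose and 5 fell (median 0.23). In the absence of HCT8/5-Fu replicate 1, 21 rose, and without HCT8 replicates 2 and 3 and HCT8/5-Fu replicates 2 and 3, 3, 3, 5 and 5. ATF3, a stress-induced factor, rose from 1.56 to 9.48 CPM (2.60) and PPP1R15A, a phosphatase subunit that restores translation, by 0.99, while NUPR1, a stress-induced chromatin protein, fell by 1.29 on the log2 scale. VLDLR, a lipoprotein receptor, had 9.96, 9.88 and 13.2 CPM against 0.0472, 0 and 0. Of 19 BCL2 family genes, which set the threshold for apoptosis, 8 rose and 2 fell (median 0.40), 9 and 4 without HCT8/5-Fu replicate 1 and 5 rises without HCT8 replicate 2. BCL2L1 and MCL1, which block apoptosis, rose by 0.92 and 0.84 on the log2 scale. HRK, which promotes apoptosis, went from 0.0279 to 1.26 CPM, from 2 reads in HCT8 to 98 in HCT8/5-Fu. It was tested only because of HCT8/5-Fu, so that its call could only be a rise. BMF, which also promotes apoptosis, had 6.81, 10.5 and 10.2 CPM against 1.56, 2.33 and 2.04 (-2.21). Of 10 cancer-testis genes, DMC1, a meiotic recombinase, and SYCP2, of the synaptonemal complex, fell and 0 rose by edgeR. SYCP2 was lost without HCT8 replicate 3 (adjusted p = 0.0820), 1 fell without HCT8 replicate 3 or HCT8/5-Fu replicate 2 or 3, and 1 rose without HCT8 replicate 1 or HCT8/5-Fu replicate 1.

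Most early response genes of growth factor signalling rose. Of 29 immediate early and AP-1 genes, 20 rose and 1 fell (median 0.84), 21 and 1 without HCT8/5-Fu replicate 1, and 16 and 2 without HCT8/5-Fu replicate 2. DUSP4 and DUSP6 are dual-specificity phosphatases that switch ERK off. DUSP4 had 17.9, 11.4 and 13.2 CPM in HCT8 and 244, 221 and 220 in HCT8/5-Fu (4.01 ± 0.18, adjusted p = 2.17e-06). DUSP6 had 104.8, 94.3 and 109 CPM against 529, 468 and 442 (2.22 ± 0.14, adjusted p = 9.23e-06). FOSL1, an AP-1 subunit, had 9.22, 6.03 and 5.17 CPM against 30.5, 50.4 and 49.1 (2.67). EGR1, an early growth response factor and a further member chosen after its values were seen, was the fall (37.2, 26.5 and 42.6 against 17.6, 23.1 and 19.5 CPM, -0.82). Of 26 WNT targets, 10 rose and 11 fell (median -0.11), 10 and 12 without HCT8/5-Fu replicate 1. CCND1, cyclin D1, had 616, 496 and 511 CPM against 2397, 2197 and 2150 (2.05 ± 0.17). Secreted or membrane inhibitors of the pathway moved both ways. APCDD1 went from 83.3 to 5.59 CPM (-3.91) and NOTUM, which inactivates WNT ligands, from 27.7 to 2.95 (-3.22). DKK4, a secreted inhibitor chosen after its values were seen, had 0 reads in HCT8 and 111 in HCT8/5-Fu, at least 35.5-fold higher, or 23.1-fold without HCT8 replicate 3. It was tested only because of HCT8/5-Fu, so that a call of it could only be a rise. CD44, a hyaluronan receptor, had 51.9, 40.2 and 36.1 CPM against 4.06, 6.42 and 6.72 (-2.89).

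**Figure D4:**
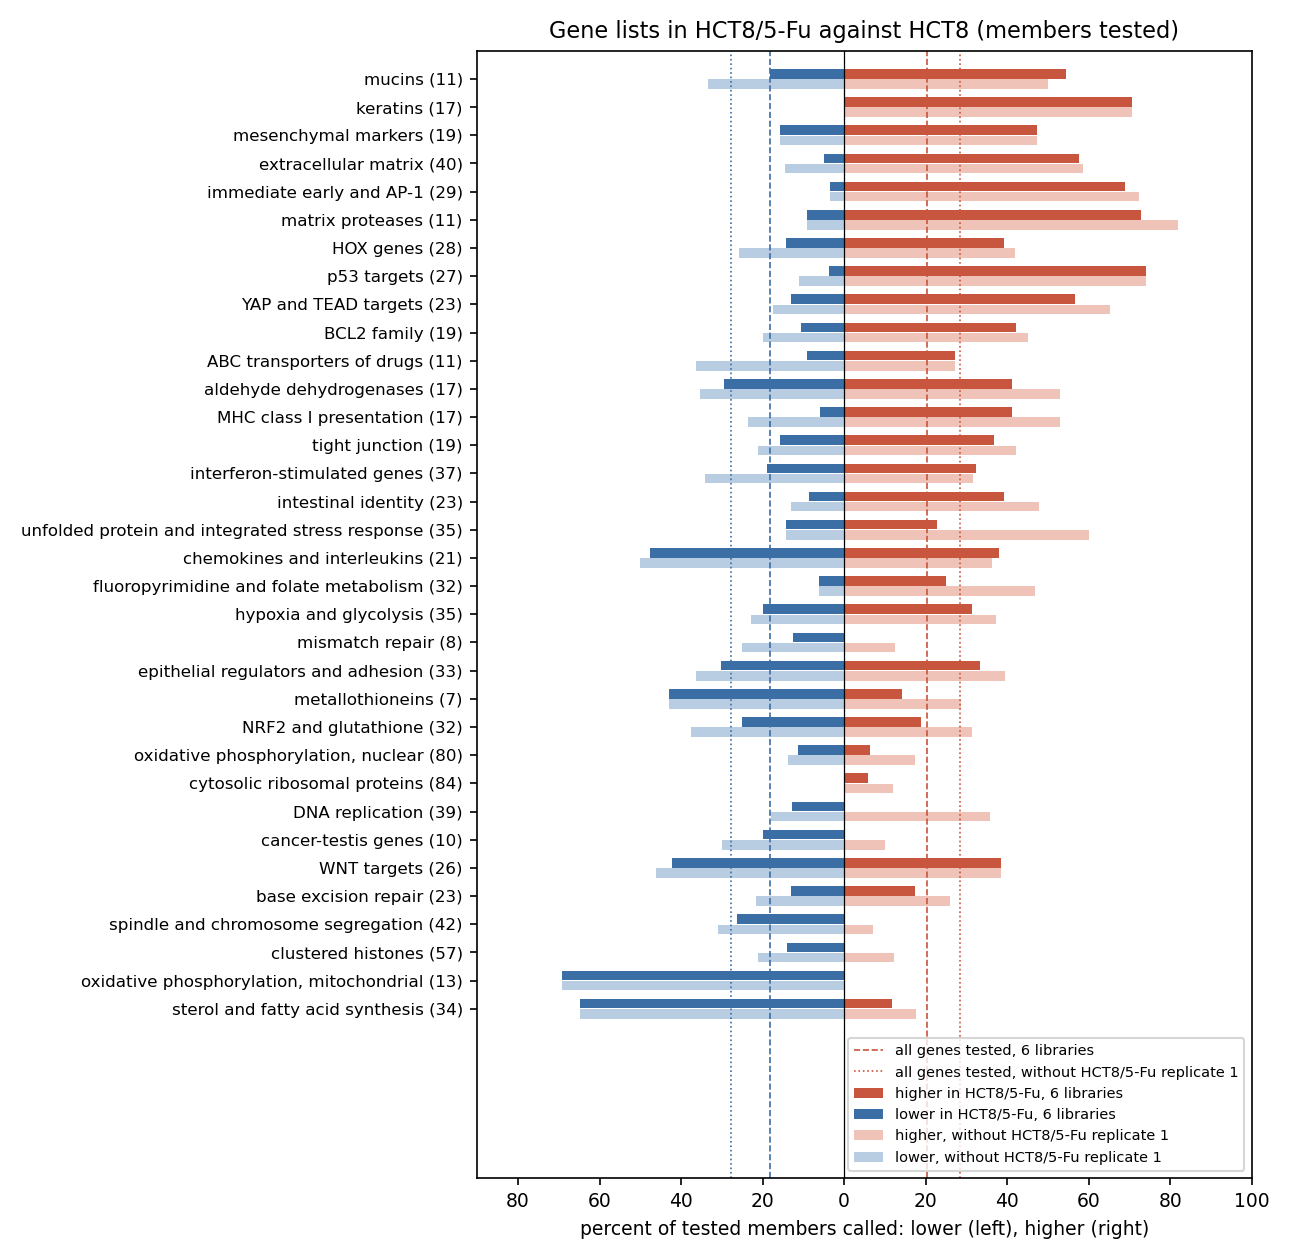
Share of the tested members of 34 gene lists called lower (left) and higher (right) in HCT8/5-Fu, with all 6 libraries (dark) and without HCT8/5-Fu replicate 1 (pale), in percent. Dashed lines mark the shares of all tested genes with 6 libraries, 20.4% higher and 18.3% lower, to be read with the dark bars, and dotted lines those without that replicate, 28.5% and 27.7%, to be read with the pale bars. Genes of p53, immediate early response, keratins and extracellular matrix lay to the right and sterol synthesis and mitochondrially encoded genes to the left.

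Few markers of other cell types had counts. Of the markers of fibroblasts, endothelium, leukocytes, neuroendocrine cells, hepatocytes and melanocytes, 2 of each list had enough counts to be tested, and of the erythroid markers 0. LAPTM5 was the 1 rise and CD14 a fall in the leukocyte list, ERG, SCG2 and TF fell in the endothelial, neuroendocrine and hepatocyte lists, and these last 3 calls were lost with 1 library left out (adjusted p = 0.0534 to 0.123). The summed level of the 10 leukocyte markers was 4.48 to 5.33 CPM in HCT8 and 8.76 to 18.4 in HCT8/5-Fu, 4 of them without a read in any of the 6 libraries, and that of the 9 fibroblast markers 8.29 to 11.7 and 6.51 to 8.83. Squamous markers summed to 15.9 to 26.9 CPM in HCT8 and 44.6 to 65.9 in HCT8/5-Fu, with 4 rises among 6 tested, all of them keratins. Of the 6, 3 had 0 to 3 reads in HCT8 and could be called only as rises. The part of other cells in the rise of PRF1 and LAPTM5 was not tested.

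Small RNAs were measured in the same 6 samples. A miRNA pairs with its targets through its seed, bases 2 to 8 from its 5′ end, so miRNAs with the same seed can bind the same sites. The mature sequences shown are of miRNAs picked from the larger falls and rises, of the seed relatives set beside them, and of hsa-miR-34a-5p, which p53 induces. They come from RefSeq (GRCh38.p14) and are written 5′ to 3′ with the seed in capitals. Of 55 miRNAs named by the rule, 50 had an entry.
hsa-miR-146a-5p: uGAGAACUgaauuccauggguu
hsa-miR-146b-5p: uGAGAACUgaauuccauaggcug
hsa-miR-224-5p: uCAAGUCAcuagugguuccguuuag
hsa-miR-452-5p: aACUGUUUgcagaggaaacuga
hsa-miR-372-3p: aAAGUGCUgcgacauuugagcgu
hsa-miR-582-3p: uAACUGGUugaacaacugaacc
hsa-miR-99a-5p: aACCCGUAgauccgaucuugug
hsa-miR-99b-5p: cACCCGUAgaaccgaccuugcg
hsa-miR-92b-3p: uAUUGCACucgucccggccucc
hsa-miR-92a-3p: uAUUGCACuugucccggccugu
hsa-miR-25-3p: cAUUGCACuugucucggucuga
hsa-miR-196b-5p: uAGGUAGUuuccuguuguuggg
hsa-miR-192-5p: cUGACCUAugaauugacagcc
hsa-miR-34a-5p: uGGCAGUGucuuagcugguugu

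Of 1576 miRNAs, 587 reached 1 RPM in 3 libraries, and 152 of these (25.9%) passed an adjusted p of 0.05 by limma on log2(RPM + 1), 87 (14.8%) higher and 65 (11.1%) lower in HCT8/5-Fu. Without HCT8/5-Fu replicate 1 it was 105 of 553 (19.0%), 54 higher (9.76%) and 51 lower (9.22%), and 96, 88 and 82 were called when HCT8 replicate 2 or the HCT8/5-Fu replicates 2 and 3 were left out in turn. The median log2 change of all tested miRNAs was 0.11. The lines did not overlap for 272 miRNAs (46.3%). Since 1 RPM is added, log2 changes of miRNAs near 0 understate the change.

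The largest falls were losses. hsa-miR-146a-5p, a miRNA that restrains NF-κB signalling (chr5:160485372-160485393, plus strand), had 1691, 880 and 772 RPM in HCT8 and 0.560, 1.63 and 0.980 in HCT8/5-Fu, a log2 change of -9.03 ± 0.33 (adjusted p = 2.55e-07). Its other arm, hsa-miR-146a-3p, went from 90 reads to 0. hsa-miR-146b-5p, which has the same seed and comes from a gene on chromosome 10, had 2826 RPM in HCT8 and 3373 in HCT8/5-Fu (0.26, adjusted p = 0.310). Of the pair with this seed, 1 was lost and the other was not called. hsa-miR-224-5p (chrX:151958628-151958652, minus strand) had 412, 346 and 344 RPM in HCT8, from 2974 reads, and 3 reads in HCT8/5-Fu. hsa-miR-452-5p, about 1 kb away (chrX:151959678-151959699, minus strand), had 131, 137 and 129 RPM and 0 reads, at least 1658-fold lower. Both lie within GABRE, whose mRNA went from 1082 reads to 0. hsa-miR-372-3p, of a cluster known from embryonic stem cells (chr19:53787931-53787953, plus strand), had 885, 941 and 948 RPM against 3.24, 1.46 and 1.43 (-8.30, adjusted p = 6.33e-08). Its neighbours fell with it, hsa-miR-371a-5p from 446 reads to 3 and hsa-miR-373-3p from 45 to 1. hsa-miR-155-5p, an inflammatory miRNA named after its values were seen, lost its 182 reads (at least 365-fold lower). The HCT8/DDP libraries, whose comparison shares the HCT8 libraries, had 0 reads of hsa-miR-452-5p and hsa-miR-146a-3p and 2 of hsa-miR-224-5p.

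The other falls were moderate. hsa-miR-203a-3p, known for promoting differentiation of skin, went from 11282 to 3918 RPM (-1.52), hsa-miR-769-5p had 838, 1256 and 1357 RPM against 336, 371 and 386 (-1.63), and hsa-miR-484 and hsa-miR-877-5p fell by 1.25 and 1.15 on the log2 scale. The fall of hsa-miR-1247-3p (-1.68) was not called without HCT8/5-Fu replicate 1 (adjusted p = 0.0544).

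The largest rises came from low levels. hsa-miR-582-3p (chr5:59703630-59703651, minus strand), within the gene of the phosphodiesterase PDE4D, had 7.92, 5.11 and 10.1 RPM in HCT8 and 351, 379 and 367 in HCT8/5-Fu, a log2 change of 5.44 ± 0.23 (adjusted p = 6.73e-07). PDE4D mRNA had 5.24, 7.99 and 8.42 CPM against 61.2, 44.2 and 45.0 (2.79). hsa-miR-99a-5p (chr21:16539101-16539122, plus strand) had 4.75, 1.49 and 3.17 RPM against 102, 95.1 and 105 (4.70 ± 0.31). Its seed relative hsa-miR-99b-5p, from chromosome 19, had 8497 against 8274 RPM (-0.01, adjusted p = 0.972). hsa-miR-486-5p, best known in red blood cells, had 0, 0.210 and 3.80 RPM against 161, 85.4 and 114 (6.03), while the red cell miRNA hsa-miR-451a had 1.16 against 0.703 RPM and was not called. hsa-miR-196b-5p (chr7:27169528-27169549, minus strand), which lies beside HOXA9 and HOXA10, had 22.2, 15.1 and 13.0 RPM against 219, 209 and 217 (3.64 ± 0.21). HOXA9 itself went from 0.280 to 1.82 CPM (2.70). hsa-miR-1-3p, a muscle miRNA, rose by 3.74. Its cluster partner hsa-miR-133a-3p went from 0.387 to 5.87 RPM. That partner reached the level needed for testing only through HCT8/5-Fu, so that its call could only be a rise. hsa-miR-92b-3p (chr1:155195237-155195258, plus strand) had 96.6, 71.3 and 64.6 RPM against 383, 436 and 422 (2.42), and its seed relatives hsa-miR-92a-3p and hsa-miR-25-3p had log2 changes of 0.28 and 0.09 and were not called. hsa-miR-455-5p and hsa-miR-584-5p rose by 2.61 and 1.98, as did the mRNAs of their host genes COL27A1, a collagen, by 1.79, and SH3TC2, an endosomal adaptor, by 1.88.

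**Figure D5:**
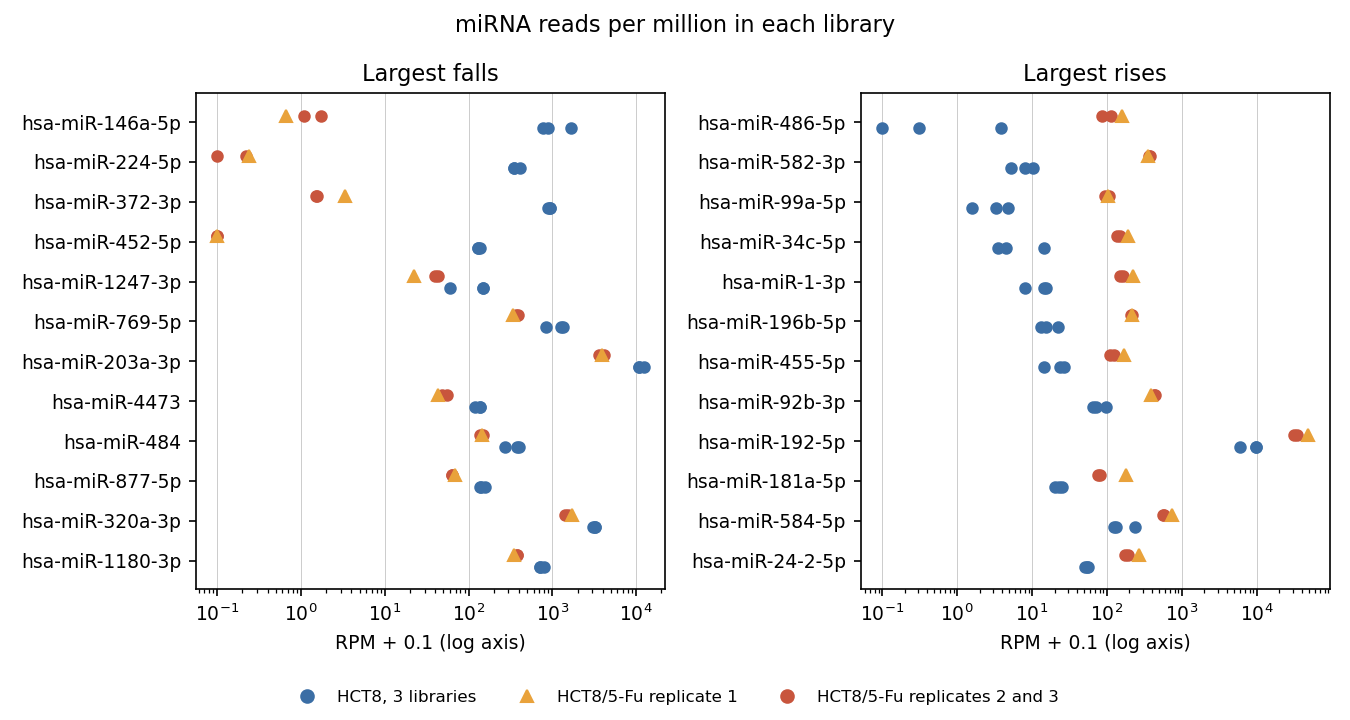
RPM + 0.1 on a log axis of the 12 miRNAs with the largest fall and the 12 with the largest rise, 1 point per library (HCT8 blue, HCT8/5-Fu replicate 1 an orange triangle, replicates 2 and 3 red). The lines did not overlap for any of them, and hsa-miR-146a-5p, hsa-miR-224-5p, hsa-miR-452-5p and hsa-miR-372-3p dropped to a few reads or none.

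The miR-34 genes are induced by p53, and 2 of their arms were well read. hsa-miR-34a-5p (chr1:9151735-9151756, minus strand), which restrains cell cycle genes, had 154, 213 and 185 RPM in HCT8 and 491, 391 and 425 in HCT8/5-Fu, a log2 change of 1.25 ± 0.17 (adjusted p = 9.60e-04). hsa-miR-34c-5p had 14.2, 3.41 and 4.43 RPM against 192, 135 and 149 (4.47 ± 0.43). The other 3 arms had a mean of at most 3.86 RPM. They reached the 1 RPM needed for testing only through HCT8/5-Fu, so that a call of theirs could only be a rise, and they are not counted.

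miRNAs of intestinal epithelium included the most abundant rise. hsa-miR-192-5p (chr11:64891203-64891223, minus strand), which p53 also induces, had 6046, 9667 and 9820 RPM in HCT8 and 48764, 31377 and 34158 in HCT8/5-Fu (2.17 ± 0.25, adjusted p = 4.61e-04). hsa-miR-194-5p, of which a copy lies in the same cluster, rose by 1.80 and hsa-miR-215-5p, which shares the seed of hsa-miR-192-5p, by 1.55. In this list of 9, 4 rose and hsa-miR-203a-3p fell (median 0.64). Among the rises, hsa-miR-205-5p had 0 RPM in HCT8 and 4.61 in HCT8/5-Fu. It reached the level needed for testing only through HCT8/5-Fu, so that its call could only be a rise. Of 8 HOX cluster miRNAs 5 rose (median 0.74), but 3 without HCT8 replicate 2 or any 1 of the HCT8/5-Fu libraries. hsa-miR-10b-5p rose by 0.94, and hsa-miR-10a-5p, one of the most abundant miRNAs of both lines, had 138500 against 162320 RPM and was not called (adjusted p = 0.385). Of 12 members of the miR-29, miR-30 and miR-181 families hsa-miR-181a-5p and hsa-miR-181b-5p rose, by 2.14 and 1.06, and 4 rose without HCT8 replicate 1.

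Clusters of 1 family did not always move together. hsa-miR-24-2-5p, hsa-miR-27a-3p and hsa-miR-23a-3p, from a cluster on chromosome 19, rose by 1.94, 1.40 and 1.19 on the log2 scale. hsa-miR-27b-3p and hsa-miR-23b-3p, seed relatives of the last 2 from another cluster, had log2 changes of -0.62 and -0.47 and were called lower. Of the 9 members of the miR-99/100, let-7 and miR-125 clusters 3 rose and hsa-miR-99b-3p fell (-0.58). Among the rises, hsa-miR-125b-5p (0.317 against 2.16 RPM) and hsa-miR-125b-2-3p (0 against 2.41) were tested only because of HCT8/5-Fu and could only rise. Without any 1 of the HCT8/5-Fu libraries these could no longer be tested, and 1 rise was left. The list had 0 falls by limma without HCT8 replicate 2 or 3 or HCT8/5-Fu replicate 2 or 3. Of the miR-183 cluster hsa-miR-182-5p rose (0.51, of 3 tested), but 0 were called without HCT8 replicate 2 or 3 or any 1 of the HCT8/5-Fu libraries.

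Several families known from epithelium and growth showed 0 calls by limma. The 9 arms of the miR-200 family, which represses ZEB1, had log2 changes from -0.30 to 0.46, with hsa-miR-200b-3p at 16792 against 18603 RPM (0.15 ± 0.15, adjusted p = 0.493). The 12 tested members of the miR-17-92 and related clusters had a median of -0.14. The let-7 family of 9 had a median of -0.12, with hsa-let-7i-5p at 24787 against 31524 RPM (adjusted p = 0.161), and without HCT8 replicate 1 had 1 rise and 1 fall, without HCT8/5-Fu replicate 1, 1 fall. hsa-miR-21-5p, the oncogenic miRNA of many tumours, had 175380 against 138350 RPM (-0.28, adjusted p = 0.469). A p that misses the threshold does not show that these levels were the same: for hsa-miR-21-5p the SE of the log2 change was 0.27.

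Of 52233 lncRNA transcripts, 3067 reached 1 in 3 libraries, of which 174 (5.67%) were called by limma, 53 higher (1.73%) and 121 lower (3.95%). This count moved when 1 library was left out: it was 1422 without HCT8/5-Fu replicate 1 and 9 to 32 without any other library. A transcript found only in a line left with 2 libraries could no longer be tested. Calls higher and lower were 18 and 1, 9 and 0, and 28 and 4 without HCT8 replicates 1, 2 and 3. They were 46 and 1376, 1 and 21, and 0 and 14 without HCT8/5-Fu replicates 1, 2 and 3. The part of this filter in the counts was not tested. MSTRG.30161.40 was listed at 0 in HCT8 and at 10.7, 17.5 and 21.9 in HCT8/5-Fu, and ENST00000649921 at 0 and at 4.31, 4.42 and 4.51. ENST00000561275 had 6.42, 4.65 and 4.91 against 0, 0 and 0.248, and ENST00000663976 had 3.38, 3.67 and 3.56 against 0.0987, 0.0881 and 0, in the unit of the table, which the sources used here do not state. Each of these transcripts reached the 1 needed for testing only through the line where it was higher. Its call could therefore have only that direction. The files pair none of these transcripts with a gene name. Of 7393 circRNAs, 266 (3.60%) passed the thresholds of the study, a log2 fold change over 1 in size with p under 0.05 before adjustment, 109 higher (1.47%) and 157 lower (2.12%), and 83 of 2004 when 10 reads were asked for. With any 1 library left out the count was 411 to 567. Among the circRNAs the study named from these samples, which is no independent choice, hsacirc_023607 went from 427 reads to 1478 (1.98, adjusted p = 1.69e-05 by limma). The other 10 had an adjusted p of 0.601. Of these, hsacirc_006554 had 8, 26 and 23 reads in HCT8 and 33, 46 and 54 in HCT8/5-Fu (log2 fold change 1.51, unadjusted p = 3.17e-04, adjusted p = 0.601 by limma). hsacirc_008249 had 44, 44 and 47 reads against 11, 22 and 21 (-1.24), with the same adjusted p. These reads are unscaled, from libraries of 8834, 17941 and 17882 circRNA reads in HCT8 and 8310, 15980 and 15862 in HCT8/5-Fu. A read of either replicate 1 thus stands for more RPM. Once scaled, hsacirc_008249 had a mean of 3354 RPM (SD 1412) in HCT8 and 1341 (SD 30.5) in HCT8/5-Fu.

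Set beside HCT8/DDP, the 5-Fu line differed in few genes with all libraries. Of 13012 genes tested by edgeR, 295 were called (2.27%), 98 higher (0.753%) and 197 lower (1.51%) in HCT8/5-Fu. This count depended on single libraries: without HCT8/5-Fu replicate 1 it was 3929, and without HCT8/5-Fu replicate 2 or 3 or HCT8/DDP replicate 1, 2 or 3 it was 0 by edgeR, with 1527 to 2551 genes at an unadjusted p under 0.05. DESeq2 called 1283 with all 6. The genes named were picked from the larger changes after their values were seen, and others changed by more. PTPRR, a tyrosine phosphatase that acts on ERK, had a mean of 47.1 CPM in HCT8/5-Fu, 17.4 in HCT8/DDP and 4.25 in HCT8 (HCT8/5-Fu against HCT8/DDP 1.45 ± 0.16 on the log2 scale, adjusted p = 0.0217). LOXL4, a lysyl oxidase of the matrix, had 130.3, 52.6 and 7.37 CPM in the same order (1.32). SPARC, a matricellular protein, was lower in HCT8/5-Fu than in HCT8/DDP, with 3.67, 13.7 and 0.516 CPM (-1.88 ± 0.19, adjusted p = 0.0159). Both resistant lines lay above HCT8 for these genes and differed in how far. NOTUM had 2.95, 14.6 and 27.7 CPM (-2.28), and ESPN, an actin bundler of microvilli, 24.3, 61.8 and 18.6 (-1.34). Genes near 0 in both resistant lines could not be tested between them, among these CXCL5, with 0.0131 CPM in HCT8/DDP and 0.0283 in HCT8/5-Fu, and RAB25, with 0.0126 and 0.0533.

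Of 567 miRNAs tested against HCT8/DDP, 7 were called by limma (1.23%), 5 higher (0.882%) and 2 lower (0.353%). Without HCT8/5-Fu replicate 1 it was 8, without HCT8/DDP replicate 1 it was 4, and without each of the other 4 libraries 0, with 61 to 88 at an unadjusted p under 0.05. hsa-miR-302a-5p, of an embryonic stem cell cluster, had 3.66, 2.45 and 3.60 RPM in HCT8/5-Fu and 0 in each HCT8/DDP and HCT8 library. Among the 5 higher, hsa-miR-302a-5p, hsa-miR-302b-3p and hsa-miR-942-3p reached the level needed for testing only through HCT8/5-Fu. A call of theirs could therefore only be a rise. hsa-miR-92a-3p had 10111, 10878 and 10891 RPM against 5762, 6456 and 7372 in HCT8/DDP (0.71 ± 0.12, adjusted p = 0.0328), and hsa-miR-769-5p was lower in HCT8/5-Fu (-0.74).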

How the data were processed

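mRNA, miRNA, lncRNA and circRNA were measured in 3 libraries each of HCT8, HCT8/5-Fu and HCT8/DDP, grouped by their labels. The authors deposited whole-number counts per gene for mRNA beside FPKM, which were not tested, and RPM (reads scaled to the library total) for miRNAs and circRNAs. The lncRNA table as deposited holds a normalized signal whose unit the sources used here do not state. The submitters' notes name HISAT2 and DESeq2 without versions and the build mm9, although the coordinates of the mRNA table are those of human GRCh38. The sources do not say whether the mRNA counts came from RNA treated with RNase R, as the circRNA libraries did.

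mRNA was tested with edgeR 4.0.16 (quasi-likelihood, TMM, filterByExpr) in R 4.3.3, and CPM are TMM-scaled. The other RNAs were tested with limma 3.58.1 on log2(value + 1), with 0.1 added for circRNAs, after asking miRNAs and lncRNAs for 1 in 3 libraries. P-values were adjusted over all features by the Benjamini-Hochberg method. Low RPM values were whole multiples of 1 read in 100% of cases within 0.1, and edgeR on these reads called 154 miRNAs. On simulated counts for HCT8/5-Fu against HCT8, edgeR recovered 99% of 100 genes changed by a log2 fold of 1 among 13142, and called 11 unchanged genes. The simulated counts had the same spread for all genes and no replicate that stood apart. They therefore do not give the share of true changes found in these libraries. Alternatives were DESeq2 1.42.0, other scalings, pseudocounts and filters, all 9 libraries, a replicate block and each library left out.

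Named mRNAs were the 15 largest changes each way with an adjusted p under 0.05, no overlap and at least 10 CPM, up to 4 called members of each list by p, and 8 genes of 5-Fu metabolism and export. For miRNAs these were the 12 largest each way at 100 RPM or more and up to 3 members of each list by level. Named lncRNAs were the 5 with the smallest p each way, of which 4 are printed, and circRNAs those the study named. The members and lists were chosen with earlier results of these data known. Some genes that the naming rule selected are not reported here.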

Additional observations from a re-analysis of the deposited data

How the results depend on the processing

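Counts of calls for HCT8/5-Fu against HCT8 ran from 3274 to 7533 genes, 82 to 167 miRNAs, 9 to 1422 lncRNAs and 411 to 567 circRNAs with 1 library left out. Without both libraries numbered 1, an alternative chosen after seeing the data, they were 9777 genes and 235 miRNAs. For lncRNAs a pseudocount of 0.1 gave 85 calls, no filter 22 and all 9 libraries 334, and asking circRNAs for 10 reads left 83. Against HCT8/DDP, DESeq2 called 1283 genes and the fit of all 9 libraries 635, and the range with 1 library left out was 0 to 3929. For miRNAs against HCT8/DDP a pseudocount of 0.1 gave 4 calls, no filter 0 (145 at an unadjusted p under 0.05), quantile scaling 20, edgeR on the reads 23, all 9 libraries 3, and 1 library left out 0 to 8. Deviations of same-numbered HCT8 and HCT8/5-Fu libraries from their group means correlated at 0.083, 0.104 and 0.054 for mRNA and 0.163, 0.055 and 0.205 for miRNA. They were 0.186, 0.095 and 0.052 for lncRNA and -0.009, -0.014 and -0.009 for circRNA. Libraries of different numbers correlated at -0.135 to 0.107 for mRNA, -0.276 to 0.245 for miRNA, -0.156 to 0.077 for lncRNA and -0.015 to 0.024 for circRNA. Whether libraries of the same number shared a batch was not tested. With the replicate block, 4685 genes, 120 miRNAs, 110 lncRNAs and 238 circRNAs were called, and against HCT8/DDP 0 genes by edgeR (2263 at an unadjusted p under 0.05) and 1 miRNA.

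Of 160 named mRNAs 138 kept their direction and side of the threshold in every setting in which they could be tested, of 55 miRNAs 32, of 10 lncRNAs 9 (90 values over 12 settings) and of 11 circRNAs 7. No value that reversed was called. TK1 ranged from -0.41 to 0.19 with 1 library left out and was 0.31 without both libraries numbered 1. Under quantile scaling hsa-miR-200b-3p was -0.081, hsa-miR-200c-3p -0.019, hsa-miR-25-3p -0.087, hsa-let-7i-5p -0.081, hsa-let-7f-5p -0.15, hsa-let-7g-5p -0.014, hsa-miR-7-5p -0.13, hsa-miR-183-5p -0.082, hsa-miR-126-3p -0.038, hsa-miR-99b-5p 0.079 and hsa-miR-30c-5p 0.017. With edgeR on the reads hsa-miR-25-3p was -0.017 and hsa-miR-126-3p -0.093. With 1 library left out hsa-miR-99b-5p ranged from -0.25 to 0.14, hsa-miR-21-5p from -0.45 to 0.025, hsa-miR-30c-5p from -0.27 to 0.10 and hsa-miR-126-3p from -0.086 to 0.071, and without both libraries numbered 1 the last was -0.050. The cause was not tested for any of these. Depth limits the miRNAs of HCT8 replicate 1, where 1 read is 1.58 RPM.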
